A study of Mus musculus with 36 samples.

Results

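DNA methylation in mammals is written, copied and removed by a small set of enzymes, and the genes of 8 of them were followed here in mouse embryonic stem cells: the maintenance methyltransferase Dnmt1 and its recruiter Uhrf1, the de novo methyltransferases Dnmt3a and Dnmt3b with their catalytically inactive cofactor Dnmt3l, and the dioxygenases Tet1, Tet2 and Tet3. The members were taken by gene name from a count table of 49671 genes, and 8 of 8 were found. The cells carry the strain label 129m wt and were grown for 24 h or 48 h on soft or stiff StemBond hydrogels (polyacrylamide with covalently tethered extracellular matrix) or on tissue culture plastic. All media held serum, with or without LIF (a cytokine that sustains self-renewal) and with or without PD03 (PD0325901, an inhibitor of the kinase MEK, which activates ERK). RNA was sequenced from 36 libraries in 11 groups, with 6 libraries of soft serum + PD03 and 3 of every other group.

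The serum + LIF medium was sampled on soft and stiff gels at 24 h, and on soft gels, stiff gels and plastic at 48 h. Serum alone, serum + PD03 and serum + LIF + PD03 were sampled on soft and stiff gels at 48 h. A group without a stated time below is a 48 h group. The cells are a cultured line with no genetic change named in the labels, and nothing says that replicates came from separate cultures, so p-values measure the spread between these samples, which may be technical.

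Methyl groups on CpG dinucleotides are set on bare DNA by Dnmt3a and Dnmt3b, which Dnmt3l stimulates in germ cells and embryonic stem cells. After each round of replication Uhrf1 binds hemimethylated CpG and brings Dnmt1 to restore the mark on the new strand. Tet enzymes oxidise methylcytosine using 2-oxoglutarate, and the oxidised bases are lost by dilution or cut out by the glycosylase Tdg. Mouse embryonic stem cells in serum carry high and uneven methylation, and inhibition of MEK is part of the media that hold them in a hypomethylated naive state.

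The genes lie on different chromosomes of GRCm38 (GENCODE M21) except for Dnmt3l and Tet1, which share chromosome 10. Dnmt1 is at chr9:20907209-20959888 on the minus strand and Uhrf1 at chr17:56303321-56323486 on the plus strand. Dnmt3a is at chr12:3806007-3914443, Dnmt3b at chr2:153649450-153687730 and Dnmt3l at chr10:78041947-78063622, all on the plus strand. Tet1 is at chr10:62804570-62908996, Tet2 at chr3:133463679-133545139 and Tet3 at chr6:83362373-83459084, all on the minus strand. Genes on the opposite strand overlap 2.24% of the exon bases of Dnmt3l (Aire), 0.799% of those of Dnmt3a (Dnmt3aos) and 0.255% of those of Tet2 (Gm42567), and the strand setting of the counting was not stated.

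The 250 bases before a start site are shown for Dnmt3b and Dnmt3l, which had the lower levels with PD03 described below, for Tet2, which had the higher level, and for Uhrf1, which stayed near its level. They are RefSeq sequences of GRCm38.p6, read 5′ to 3′ in the direction of the gene, and none of the 4 windows holds an annotated exon base. Capitals mark matches to 4 motifs searched on both strands: CCAAT (the CCAAT box), GGGCGG (the GC box), CCGGAAG (ETS-type) and TTTCGCG (E2F-type), where neighbouring matches may touch or overlap.
Dnmt3b, chr2:153649199-153649448, plus strand: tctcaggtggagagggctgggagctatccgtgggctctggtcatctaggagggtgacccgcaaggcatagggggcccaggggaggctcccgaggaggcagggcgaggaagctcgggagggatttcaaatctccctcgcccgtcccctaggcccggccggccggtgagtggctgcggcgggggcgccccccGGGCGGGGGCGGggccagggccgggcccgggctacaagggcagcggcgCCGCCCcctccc
Dnmt3l, chr10:78049592-78049841, plus strand: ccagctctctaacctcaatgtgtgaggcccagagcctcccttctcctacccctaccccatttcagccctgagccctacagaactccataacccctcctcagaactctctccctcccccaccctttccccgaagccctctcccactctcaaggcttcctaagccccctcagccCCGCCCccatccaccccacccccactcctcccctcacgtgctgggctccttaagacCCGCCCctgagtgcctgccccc
Tet2, chr3:133544391-133544640, minus strand: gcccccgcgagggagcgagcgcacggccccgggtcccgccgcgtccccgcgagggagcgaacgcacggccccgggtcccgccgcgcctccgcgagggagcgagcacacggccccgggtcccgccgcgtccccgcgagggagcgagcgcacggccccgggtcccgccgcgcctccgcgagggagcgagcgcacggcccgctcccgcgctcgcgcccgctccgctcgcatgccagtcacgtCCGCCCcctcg
Uhrf1, chr17:56304063-56304312, plus strand: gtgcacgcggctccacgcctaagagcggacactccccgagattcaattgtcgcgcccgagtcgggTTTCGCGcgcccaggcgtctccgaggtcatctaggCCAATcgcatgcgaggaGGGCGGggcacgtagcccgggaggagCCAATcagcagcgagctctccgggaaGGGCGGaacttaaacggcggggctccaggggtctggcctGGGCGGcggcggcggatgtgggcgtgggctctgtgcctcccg

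The window of Tet2 held 51 CG dinucleotides, and 0.067% of the 32851 promoter windows of the same length held as many. Dnmt3b had 21 (16.3% of windows had as many), the shown window of Uhrf1 30 (5.94%) and that of Dnmt3l 4 (62.2%), against a median of 6 over all promoters. The GC box was present in 32.7% of all promoters and the CCAAT box in 33.8%. CCGGAAG was in 6.91% of all promoters and in none of the 15 windows of the 8 members, which says only that these letters are not in these windows.

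The E2F-type letters were in 0.703% of all promoters and, among the members, in 1 window of Dnmt1 and 1 of Uhrf1, the pair that copies methylation at replication. Both stretches are shown with 10 bases on each side, and a match is not a mapped binding site.
Dnmt1, chr9:20952825-20952851, minus strand: tttccgcgcgCGCGAAAaagccggggt
Uhrf1, chr17:56304118-56304144, plus strand: ccgagtcgggTTTCGCGcgcccaggcg

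Total counts ran from 10405696 to 26635239 per library, and the lowest count of any member in any library was 352, a Tet3 value. All 45 pairs of replicates differed by more than sampling noise. In soft serum + PD03, pairs holding library 3 had a chi-square per gene of 8.28 to 12.8, against 2.65 to 5.22 among the other 5 libraries. In stiff serum, pairs holding library 2 had 13.4 and 10.3, against 4.66 for the pair without it, and on plastic those holding library 2 had 8.28 and 7.3, against 2.22. The PD03 calls of the members were the same without either of the serum libraries. Calls of members that changed without 1 of these 3 libraries are given with the results for comparisons that hold its group. Without soft serum + PD03 library 3 the soft against stiff count described below also went from 9 to 11. The pluripotency markers Pou5f1, Sox2, Nanog, Sall4, Zfp42 and Esrrb summed to 2628 to 3236 CPM (counts relative to the library total, scaled by TMM) without PD03 and 3812 to 4439 with it. Markers of other lineages also moved with PD03: the 4 trophectoderm markers summed to 16.9 to 46 CPM without PD03 and 85.1 to 126 with it, mostly as Gata3, while Elf5 was at 0 in at least 1 library. The 4 mesoderm markers went from 10.5 to 20 down to 3.68 to 5.29 CPM, with Mesp1 at 0 to 0.389 CPM. Eomes was counted both in this list and in the trophectoderm list. Primitive endoderm (20.7 to 41.5 and 17.4 to 27.8 CPM), neuroectoderm (72.3 to 108 and 83.4 to 103) and fibroblast markers (22.1 to 78.7 and 27 to 88.4) overlapped, and the part of any of these in the results was not tested.

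Per exon length, Tet1 was the most abundant of the 8 genes in every group without PD03, at group means of 94.3 to 108 RPKM (CPM divided by exon length). Uhrf1 (75 to 89 RPKM over all 11 groups) and Dnmt1 (47.8 to 54.2) came next among the genes that varied little. Dnmt3l (59.3 to 84.6) and Dnmt3b (40 to 80.1) reached similar levels without PD03, Tet2 had 18.6 to 28.7, Dnmt3a 6.23 to 9.47 and Tet3 1.96 to 2.98 RPKM over all groups. With PD03 the means were 11.7 to 12.6 RPKM for Dnmt3b, 19.3 to 22.2 for Dnmt3l, 3.11 to 3.49 for Dnmt3a, 77.4 to 84.3 for Tet1 and 58.3 to 68.8 for Tet2. Exon length here is the union of annotated exons, from 2988 bases for Dnmt3l to 16870 for Tet2. It is not the length of the transcripts expressed, so orders and ratios between genes, here and below, depend on it.

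**Figure D1:**
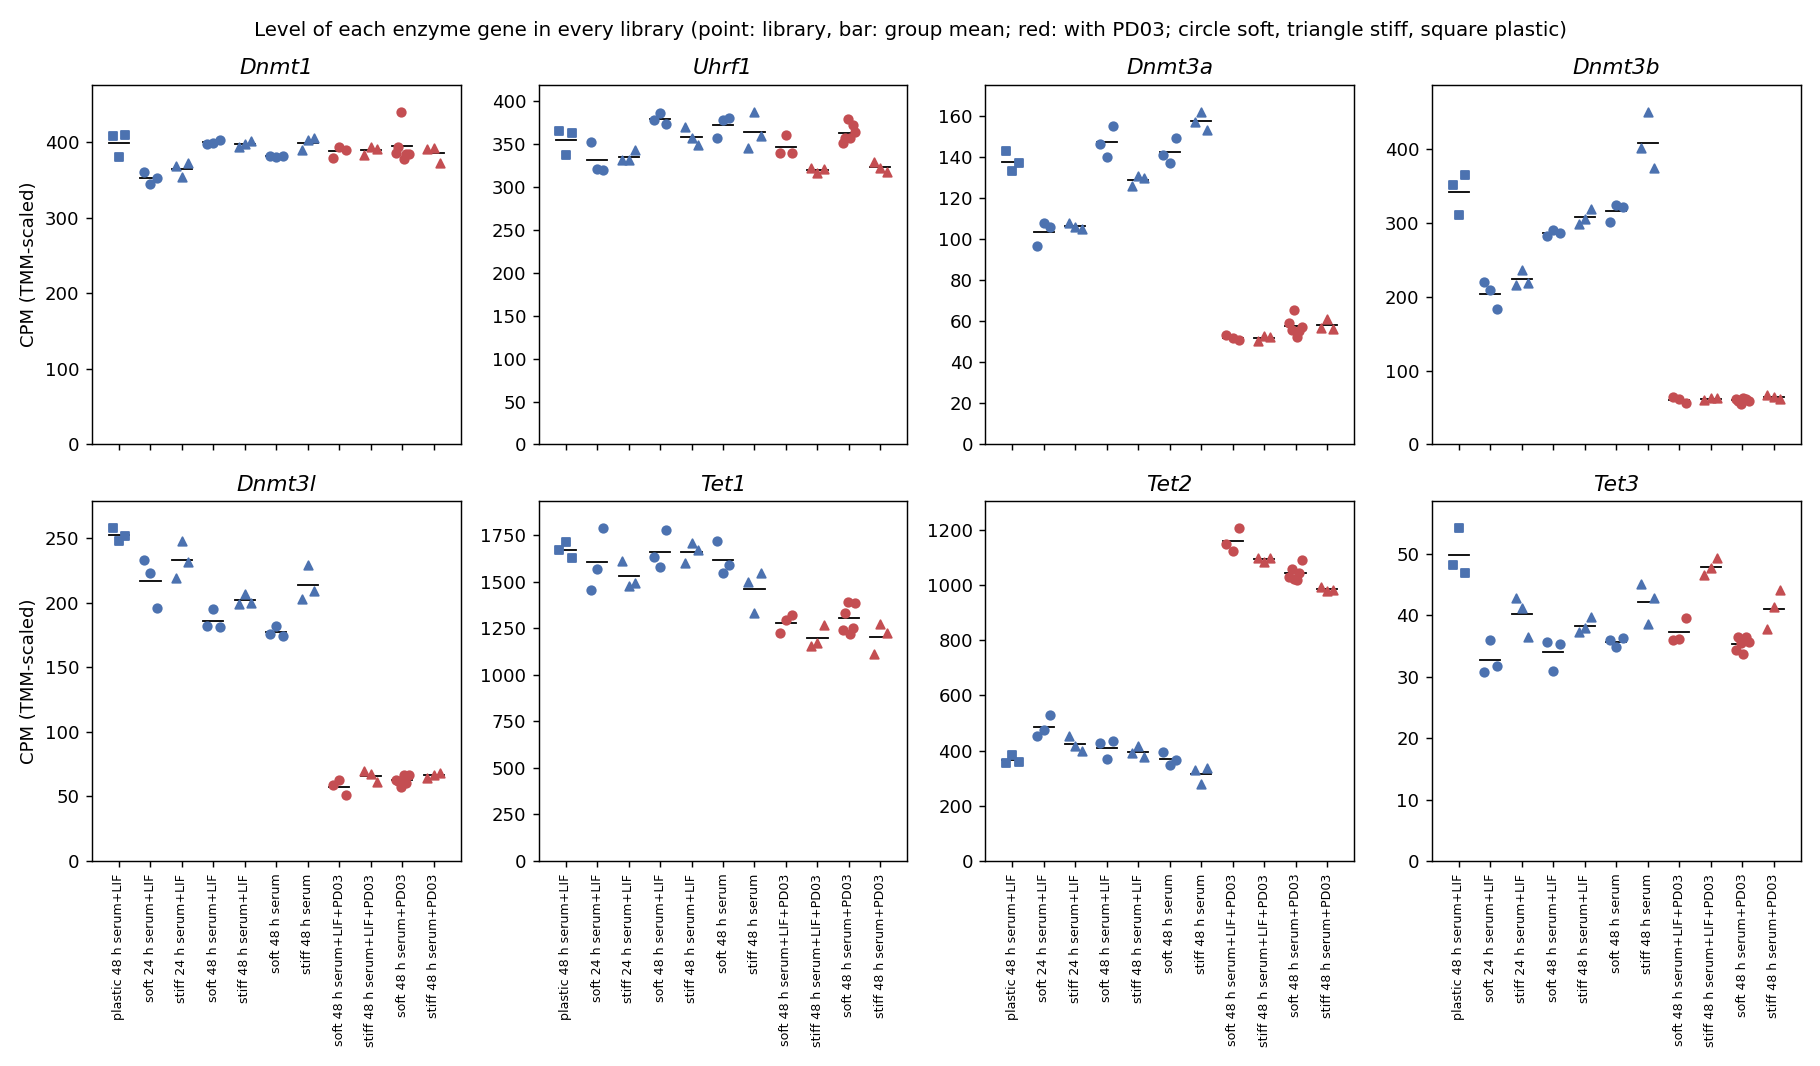
Level of each gene in every library, in CPM (y axis, from 0, separate scale per panel), for the 11 groups on the x axis; points are libraries, bars group means, red marks PD03, circles soft, triangles stiff and squares plastic. Dnmt3a, Dnmt3b and Dnmt3l sit lower and Tet2 higher in all 15 libraries with PD03 than in the 21 without, while Dnmt1, Uhrf1, Tet1 and Tet3 overlap. How many of all genes show no overlap was not counted.

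The PD03 effect was tested within each of 4 settings, soft and stiff gels with and without LIF, with edgeR's quasi-likelihood test and Benjamini-Hochberg adjustment over 17702 genes. All 3 Dnmt3 genes fell more than 2-fold and Tet2 rose more than 2-fold in all 4 settings. Tet1 fell by a smaller amount in all 4, Uhrf1 fell slightly in 3, Tet3 rose in 1 and Dnmt1 passed in none. In soft serum + LIF 6 of 8 members passed (1 higher, 5 lower), where 54.4% of all genes did (27.8% higher, 26.6% lower). In stiff serum + LIF 7 of 8 passed (2 higher, 5 lower), against 56.2% of all genes (28.3% higher, 27.8% lower). In soft serum 5 of 8 passed (1 higher, 4 lower), against 57.5% (29% higher, 28.5% lower). In stiff serum 6 of 8 passed (1 higher, 5 lower), against 55.8% (28.4% higher, 27.4% lower).

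As 54.4 to 57.5% of all genes passed, passing the test does not by itself set the members apart. The share of members that passed as lower was above that of all genes in each setting. It rests on 8 genes chosen with earlier results known and was not tested. With a fold of at least 2 as well, 4 of 8 members passed in each setting, against 18.2%, 19.4%, 18% and 19.2% of all genes in the same order. A fall of at least 2-fold in all 4 settings was seen for 3 members and for 4.64% of all genes, and a rise for 1 member and 7.24% of genes. The median change over all genes lay between -0.01 and 0.01 on the log2 scale. Where groups are said below not to overlap, the share of all genes without overlap was not counted. Of the 8 ERK target genes, which report the pathway that PD03 blocks, 7 fell in every setting and 1, Ier3, named after its values were seen, rose (0.61 to 1.03). The feedback inhibitors of receptor tyrosine kinase signalling Spry2 and Spry4 had log2 changes of -2.3 to -1.88 and -7.82 to -6.77. The phosphatase genes Dusp4 and Dusp6 had -3.03 to -2.49 and -3.15 to -2.74, and the transcription factor genes Etv4 and Egr1 -6.27 to -5.22 and -5.17 to -4.73.

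Dnmt3b, the main de novo enzyme of the early embryo, had the largest change of the 8 members. In soft serum + LIF its 3 libraries had 282, 291 and 287 CPM, and with PD03 64.1, 61.8 and 55.6 CPM. In stiff serum + LIF the values were 299, 306 and 319 CPM without PD03 and 60.3, 63 and 62.7 CPM with it. The groups were far apart, and the fall was 4.74-fold on soft gels (log2 change -2.24, SE 0.07, adjusted p = 1.21e-32) and 4.97-fold on stiff gels (-2.31, SE 0.07, adjusted p = 2.34e-33).

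Without LIF, Dnmt3b had 301, 324 and 322 CPM on soft gels and 401, 451 and 375 CPM on stiff gels. With PD03 its 6 soft libraries ran from 54.3 through a median of 60.4 to 63.6 CPM, and its 3 stiff libraries had 67.6, 64.4 and 61.1 CPM. The fall was 5.27-fold on soft gels (log2 change -2.4, SE 0.05) and 6.36-fold on stiff gels (-2.67, SE 0.07). The 4 groups with PD03 had means of 60 to 64.3 CPM, while those without ranged from 287 to 409 CPM at 48 h, so the settings were more spread without the drug than with it. In bulk samples fewer expressing cells and less RNA per cell cannot be told apart.

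Dnmt3l, the cofactor, had 182, 195 and 181 CPM in soft serum + LIF and 58.7, 63.1 and 50.8 CPM with PD03. On stiff gels with LIF it had 199, 207 and 200 CPM, and 70, 67.2 and 61.5 CPM with PD03. Every library with the drug was below every library without it, at a 3.23-fold (log2 change -1.69, SE 0.07) and a 3.05-fold fall (-1.61, SE 0.06). In serum alone the fall was 2.84-fold on soft gels (-1.5, SE 0.05) and 3.22-fold on stiff gels (-1.69, SE 0.06), from group means of 177 ± 4.21 (SD, n = 3) and 214 ± 13.5 CPM (SD, n = 3) to 62.5 ± 3.76 (SD, n = 6) and 66.2 ± 1.8 CPM (SD, n = 3).

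Dnmt3a, the second de novo enzyme, had 146, 140 and 155 CPM in soft serum + LIF and 53.3, 51.8 and 50.6 CPM with PD03. With LIF on stiff gels it had 126, 130.4 and 129.6 CPM without the drug and 50.2, 52.8 and 52.2 CPM with it. The groups did not overlap, and Dnmt3a fell 2.83-fold on soft gels and 2.49-fold on stiff gels (log2 changes -1.5 and -1.32, SE 0.06 each). In serum alone it fell 2.47-fold on soft and 2.71-fold on stiff gels (-1.3, SE 0.05, and -1.44, SE 0.06). Over all libraries Dnmt3a lay between 96.4 and 162 CPM without PD03 and between 50.2 and 65.6 CPM with it.

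Tet2, a dioxygenase that lacks the CpG-binding domain of its relatives, moved the other way. It had 427, 369.9 and 435 CPM in soft serum + LIF and 1149.6, 1124 and 1206 CPM with PD03. In stiff serum + LIF it had 391, 415 and 378 CPM, and 1097, 1082 and 1099 CPM with PD03. No library overlapped, and the rise was 2.82-fold (log2 change 1.5, SE 0.06, adjusted p = 2.46e-27) and 2.77-fold (1.47, SE 0.06, adjusted p = 4.74e-27).

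In serum alone Tet2 had 393, 346 and 365 CPM on soft gels and 328, 279 and 337 CPM on stiff gels. With PD03 the 6 soft libraries ran from 1018 through 1036 to 1091 CPM, and the 3 stiff libraries had 991, 978 and 982 CPM. Tet2 thus rose 2.84-fold (log2 change 1.5, SE 0.05) and 3.13-fold (1.64, SE 0.06), again with no overlap.

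Tet1, the most abundant dioxygenase gene, had 1629.7, 1577 and 1776 CPM in soft serum + LIF and 1225, 1292 and 1318 CPM with PD03. In stiff serum + LIF it had 1599, 1708 and 1669.9 CPM, and 1154, 1171 and 1266 CPM with PD03. The groups did not overlap in any of the 4 settings, and the fall was 1.3-fold (log2 change -0.38, SE 0.06, adjusted p = 5.14e-07) and 1.39-fold (-0.47, SE 0.06, adjusted p = 2.95e-09). In serum alone Tet1 fell 1.24-fold on soft (adjusted p = 1.04e-06) and 1.21-fold on stiff gels (adjusted p = 9.96e-05).

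Tet3, the dioxygenase gene known from oocytes and neurons, was at the low end in all groups. In stiff serum + LIF it had 37.2, 38 and 39.8 CPM, and 46.5, 47.7 and 49.3 CPM with PD03. This was a rise of 1.25-fold (log2 change 0.32, SE 0.07, adjusted p = 1.21e-04) with no overlap. In the other settings Tet3 did not pass, at log2 changes of 0.13 (95% interval -0.02 to 0.28) in soft serum + LIF, -0.01 (-0.14 to 0.11) in soft serum and -0.04 (-0.19 to 0.1) in stiff serum.

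The maintenance pair stayed within narrow limits. Uhrf1 had 378, 386 and 374 CPM in soft serum + LIF and 339.8, 361 and 340.2 CPM with PD03, and fell 1.09-fold (log2 change -0.13, SE 0.05, adjusted p = 0.0162). This call was lost without soft serum + LIF library 2 or without soft serum + LIF + PD03 library 1 or 3 (-0.12 to -0.11, adjusted p 0.0651 to 0.0854). On stiff gels Uhrf1 fell 1.12-fold with LIF (from 359 ± 10.1 to 319.6 ± 2.8 CPM, SD, n = 3 each, adjusted p = 0.00168) and 1.13-fold in serum (from 364 ± 21.9 to 323 ± 5.38 CPM, adjusted p = 0.00113). In soft serum it gave a log2 change of -0.03 (95% interval -0.11 to 0.05, adjusted p = 0.489).

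Dnmt1 had 398, 399 and 403 CPM in soft serum + LIF and 379, 394 and 390.2 CPM with PD03. The groups did not overlap, but the change of -0.04 (95% interval -0.13 to 0.05, adjusted p = 0.427) did not pass. In the other 3 settings the log2 change lay between -0.05 and 0.05, and over all 4 the intervals reached from -0.14 to 0.13. The measured range over all libraries was 344 to 409 CPM without PD03 and 373 to 440.5 CPM with it, where the highest value was a soft serum + PD03 library whose 5 fellows had 378 to 393 CPM.

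**Figure D2:**
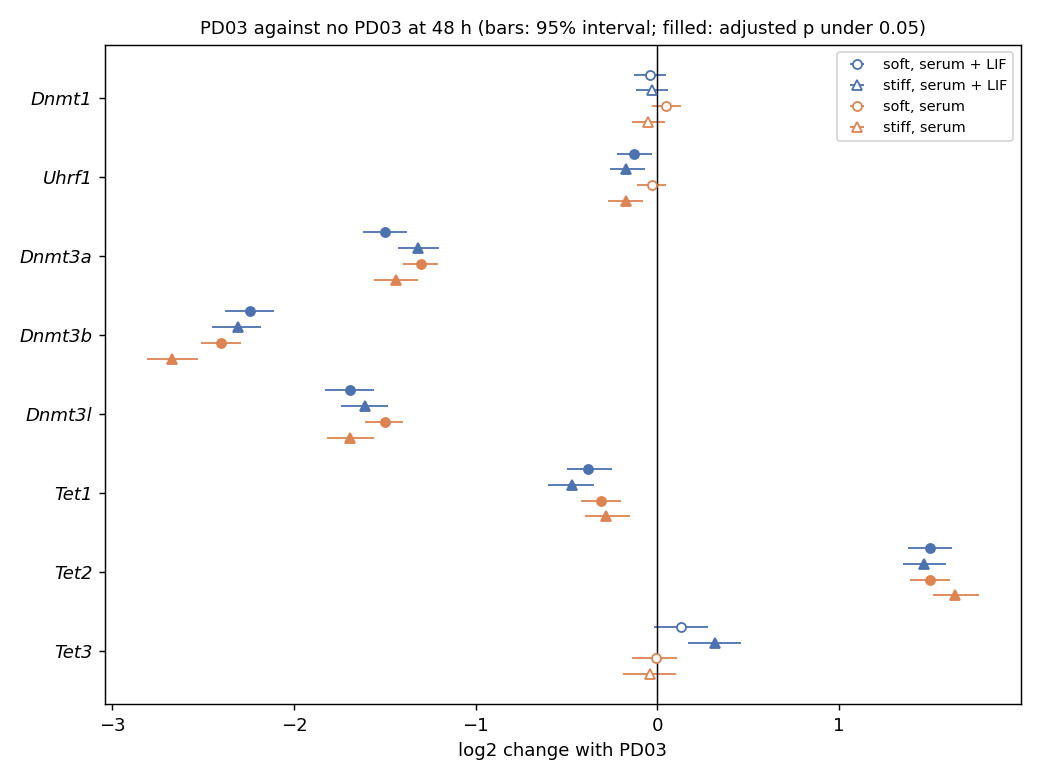
Log2 change with PD03 (x axis) for each gene (y axis) in the 4 settings; points are estimates, bars 95% intervals, circles soft, triangles stiff, blue with LIF, orange without, and filled points passed at an adjusted p under 0.05. Dnmt3b lies between -2.67 and -2.24, Dnmt3l between -1.69 and -1.5, Dnmt3a between -1.5 and -1.3, and Tet2 between 1.47 and 1.64.

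All 24 calls of the 32 tests kept their side of the threshold when a term for the sequencing pool of each sample was added in any of the 45 ways in which the libraries can be matched to the pool labels. Pools are the identifiers given in the sample descriptions, and the count columns name the group but not the sample. Most libraries with and without PD03 on the same substrate came from the same pool. In soft serum + LIF and in stiff serum the compared libraries all did, so the term could not move those changes.

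Summed per length, the balance between the 3 Dnmt3 genes and the 3 Tet genes shifted with PD03. The Dnmt3 sum had group means of 119 to 161 RPKM without PD03 and 34.2 to 38.3 RPKM with it. The Tet sum went from 115 to 135 RPKM to 139 to 154 RPKM. The ratio of the Dnmt3 sum to the Tet sum was 0.894 to 1.41 in the 7 groups without the drug and 0.223 to 0.276 in the 4 groups with it. Single libraries ran from 0.727 to 1.67 and from 0.194 to 0.287, with no overlap. The sums rest on the same values as the tests above and were not tested again.

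The make-up of the Tet sum also shifted. Tet1 made up 77.2 to 81.7% of it in groups without PD03 and 53.4 to 56.8% with it. Tet2 made up 16.1 to 21.4% without and 41.7 to 44.7% with the drug, so Tet1 remained the larger share in every group. Tet3 gave 1.43 to 2.25% over all groups. Within the Dnmt3 sum the Dnmt3l to Dnmt3b ratio was 1.11 to 1.12 in serum + LIF on the 48 h gels and 1.63 to 1.83 in the groups with PD03. It was 0.895 to 1.27 in the other 48 h groups without PD03, and 1.82 and 1.78 at 24 h without the drug.

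**Figure D3:**
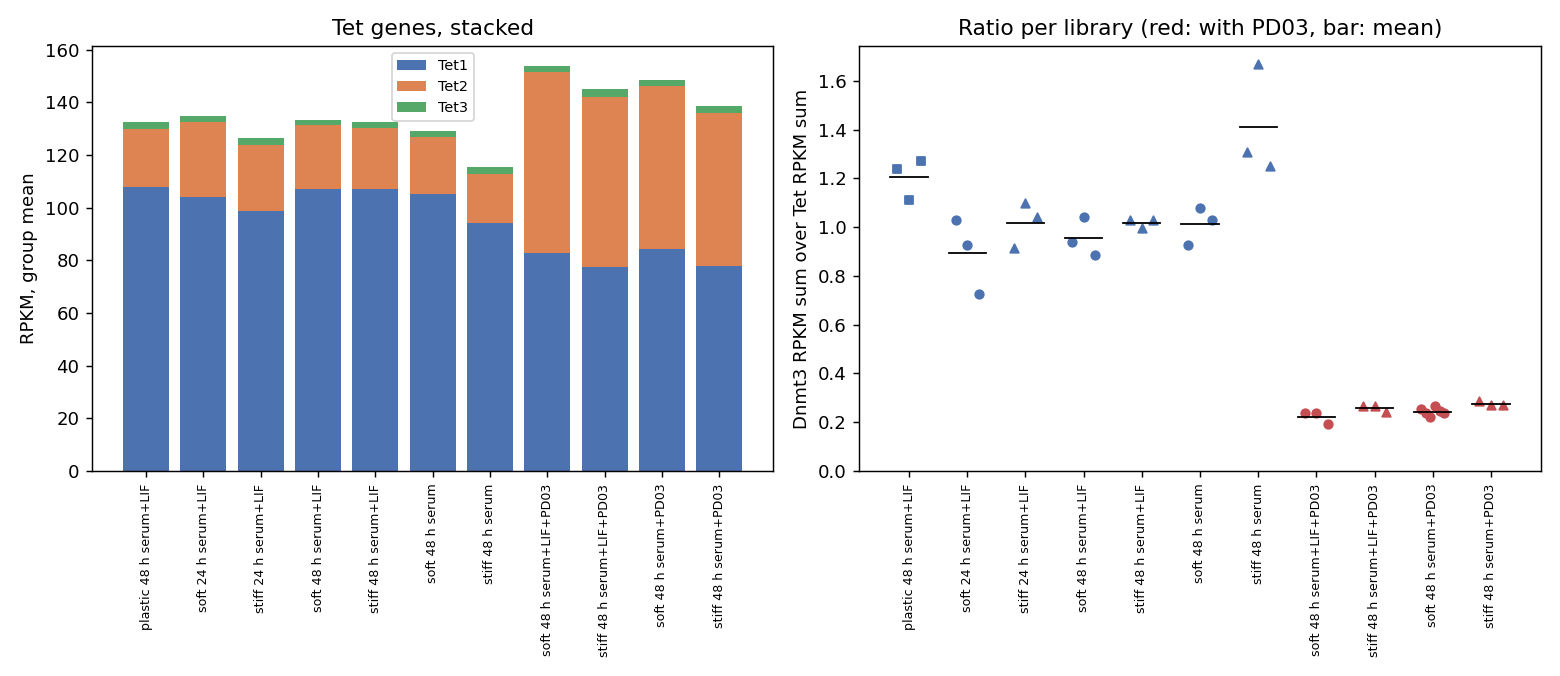
Left, group means of Tet1, Tet2 and Tet3 stacked, in RPKM (y axis); right, the ratio of the Dnmt3 RPKM sum to the Tet RPKM sum in every library (points; bars are group means, red with PD03), for the 11 groups on the x axis. The ratio is 0.894 to 1.41 on average without PD03 and 0.223 to 0.276 with it, and the orange Tet2 part grows from 16.1 to 21.4% to 41.7 to 44.7% of the stack.

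Whether the PD03 effect differed between soft and stiff gels was tested as an interaction. With edgeR 0 of 16 tests over the 8 members passed after adjustment, where 1.07% of all genes did with LIF and 0.797% without. At an unadjusted p under 0.05, 4 tests passed, 1 with LIF and 3 without, where 1689 and 2024 of the 17702 genes did. DESeq2 also called 0 of the 16. The largest estimate was Dnmt3b in serum, where the fall was smaller on soft gels by 0.27 on the log2 scale (95% interval 0.1 to 0.45, adjusted p = 0.128). Without a filter on low counts this value passed (0.28, adjusted p = 0.0431).

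For Tet2, Dnmt3l, Dnmt3a and Dnmt1 the intervals bound the difference of the PD03 effect, soft minus stiff. For Tet2 it was 0.03 (95% interval -0.14 to 0.2) with LIF and -0.14 (-0.3 to 0.02) without. For Dnmt3l it was -0.08 (-0.27 to 0.1) and 0.18 (0.01 to 0.36), and for Dnmt3a -0.19 (-0.35 to -0.02) and 0.13 (-0.02 to 0.29). For Dnmt1 the intervals ran from -0.14 to 0.12 and from -0.02 to 0.22. Over the 45 pool assignments the difference with LIF was 0.02 to 0.06 for Uhrf1, 0.07 to 0.12 for Tet1 and -0.22 to -0.17 for Tet3. Without LIF it was 0.12 to 0.16, -0.08 to 0.01 and 0.01 to 0.06 in the same order.

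Whether the PD03 effect differed with LIF was tested the same way. On soft gels 0 of 8 members passed with edgeR (0.0226% of all genes), and DESeq2 also called 0. At an unadjusted p under 0.05, 2 of the 8 passed there, as did 1301 of the 17702 genes. On stiff gels 1 of 8 passed (1.09% of all genes). This was Dnmt3b, whose fall was smaller with LIF by 0.36 on the log2 scale (SE 0.09, adjusted p = 0.0321). Tet3 on stiff gels had a difference of the same size, 0.36 (SE 0.1, adjusted p = 0.0572), and passed under 4 of 6 other settings (adjusted p 0.0216 to 0.118 over the 6) and without library 2 of stiff serum, 3 of stiff serum + LIF or 3 of stiff serum + PD03 (0.4 to 0.42, adjusted p 0.0277 to 0.0492).

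The Dnmt3b call was sensitive to single libraries. It was lost when any of 7 of the 12 stiff libraries was left out, which were library 1 or 2 of serum + LIF, 2 or 3 of serum + LIF + PD03, 2 of serum, and 2 or 3 of serum + PD03 (0.28 to 0.37, adjusted p 0.0674 to 0.161). With a pool term it passed in 15 of 45 assignments.

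The soft and stiff gels were compared in 5 media and times, and 9 of 40 tests over the members passed. At 24 h 2 of 8 members passed (3.55% of all genes). The 48 h counts were 0 of 8 for serum + LIF (0.78% of all genes), 4 of 8 for serum (4.85%), 2 of 8 for serum + PD03 (5.55%) and 1 of 8 for serum + LIF + PD03 (7.61%). No difference reached 2-fold. In serum + LIF at 48 h, 2 members had an unadjusted p under 0.05, Dnmt3a and Tet3, as did 1929 of the 17702 genes. DESeq2 called Dnmt3a alone there (0.2, adjusted p = 0.0229). The 24 h samples of both substrates came from the same pool. For most 48 h libraries the substrate and the pool cannot be told apart.

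Tet3 was lower on soft than on stiff gels in all 5 comparisons, with no overlap of libraries in any. The share of all genes without overlap was not counted. At 24 h it had 30.7, 35.9 and 31.8 CPM on soft gels and 42.8, 41.2 and 36.5 CPM on stiff gels (log2 difference -0.29, SE 0.07, adjusted p = 0.0126). In serum + LIF + PD03 it had 35.9, 36.1 and 39.6 CPM on soft and 46.5, 47.7 and 49.3 CPM on stiff gels (-0.36, SE 0.07, adjusted p = 1.92e-04). It also passed in serum (-0.25, adjusted p = 0.0278) and in serum + PD03 (-0.22, adjusted p = 0.0242), but not in serum + LIF (-0.17, adjusted p = 0.347).

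The 24 h Tet3 call held in 45 of 45 pool assignments, but these libraries share a pool. The pool term thus could not move the estimate (-0.29) or test for a pool effect. It was lost without soft library 1 or 3 or stiff library 1 or 2 (-0.27 to -0.23, adjusted p 0.0664 to 0.113). In serum the call was lost without any soft library and without stiff library 1 or 3 (-0.26 to -0.2, adjusted p 0.0571 to 0.204), and in serum + PD03 without stiff library 2 or 3 or soft library 4 (-0.21 to -0.17, adjusted p 0.054 to 0.241). With a pool term the 48 h calls for Tet3 held in 21 of 45 assignments in serum + LIF + PD03 and in 0 of 45 in the other 2 media.

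In serum without PD03 Dnmt3b and its cofactor Dnmt3l were lower and Tet2 higher on soft than on stiff gels. Dnmt3b had 301, 324 and 322 CPM on soft and 401, 451 and 375 CPM on stiff gels, a log2 difference of -0.37 (SE 0.06, adjusted p = 1.97e-05). Dnmt3l had 176, 182 and 174 CPM on soft and 203, 229 and 209 CPM on stiff gels (-0.27, SE 0.06, adjusted p = 0.00289). Tet2 had 393, 346 and 365 CPM on soft and 328, 279 and 337 CPM on stiff gels (0.23, SE 0.06, adjusted p = 0.0127). The groups did not overlap for any of the 3 genes, and the share of all genes without overlap was not counted.

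Dnmt3l lost its call without stiff library 2 (-0.2, adjusted p = 0.0761), as did Tet2 without stiff library 2 or soft library 1 (0.16 and 0.18, adjusted p = 0.144 and 0.114). With a pool term Dnmt3b passed in 21, Dnmt3l in 9 and Tet2 in 0 of 45 assignments. In serum + LIF + PD03 Dnmt3l did not pass in the main fit. There it passed as lower on soft gels with library totals, upper quartile scaling, no filter and DESeq2 (-0.21 to -0.2, adjusted p 0.0247 to 0.0463). It also passed without stiff library 3 or soft library 2 (-0.25 and -0.27, adjusted p = 0.033 and 0.0172), and in 3 of 45 assignments. Dnmt3a had 141, 137 and 149 CPM on soft and 157, 162 and 153 CPM on stiff gels and did not pass (-0.15, adjusted p = 0.118).

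At 24 h Tet2 was higher on soft gels, at 451, 475 and 527 CPM against 451, 418 and 399 CPM on stiff gels (0.2, SE 0.06, adjusted p = 0.046). The lowest soft and the highest stiff library met at the same value. The call was lost without soft library 2 or 3 or stiff library 2 or 3 (0.14 to 0.21, adjusted p 0.0634 to 0.281). It held in 12 of 45 pool assignments, but these libraries share a pool. The term could not move the estimate (0.2) or test for a pool effect, and only the adjusted p changed (0.0466 to 0.0581). In serum + PD03 Uhrf1 was higher on soft gels, at 351 to 379 CPM (median 360.4) against 329, 322 and 318 CPM (0.17, SE 0.04, adjusted p = 0.00418), in 18 of 45 assignments.

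**Figure D4:**
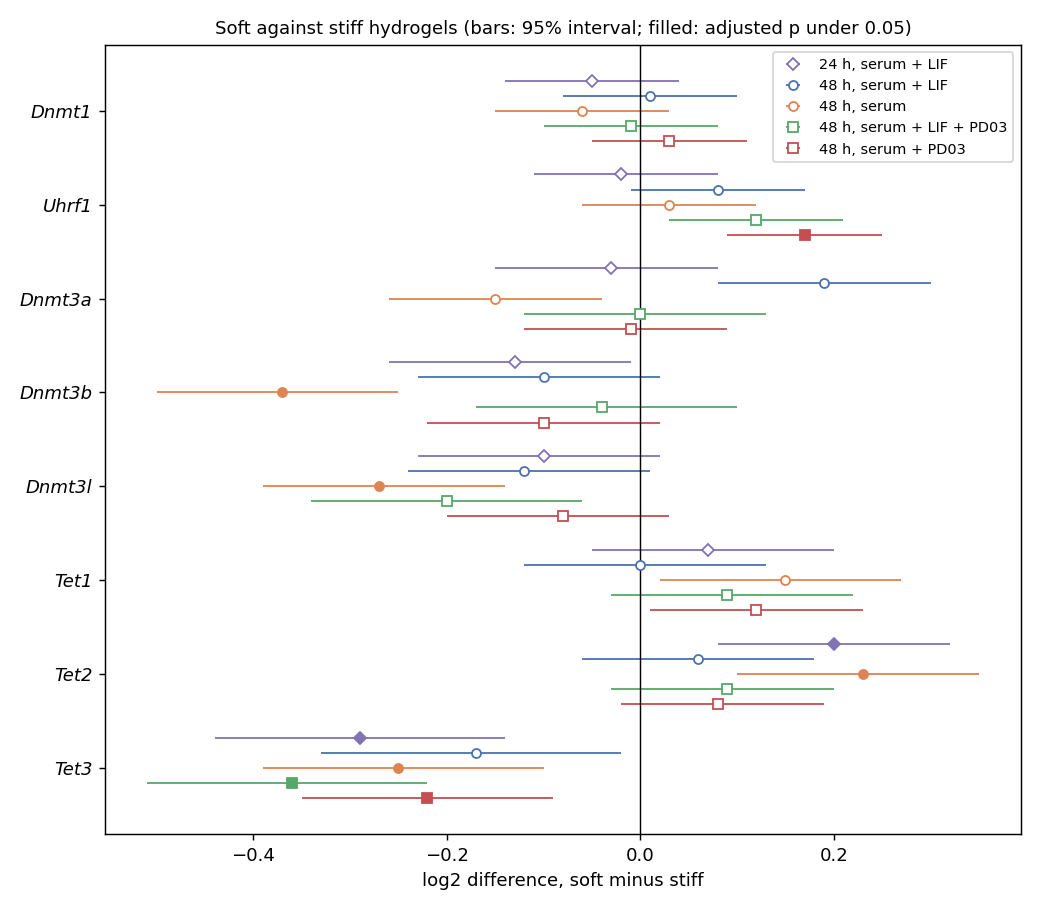
Log2 difference between soft and stiff gels (x axis, soft minus stiff) for each gene (y axis) in 5 media and times; points are estimates, bars 95% intervals, and filled points passed at an adjusted p under 0.05. Tet3 lies left of 0 in all 5 comparisons (-0.36 to -0.17), Dnmt3b reaches -0.37 in serum, and Dnmt1 stays between -0.06 and 0.03.

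LIF was compared with no LIF in 4 settings. On stiff gels without PD03 3 of 8 members passed (1.41% of all genes). With edgeR 0 of 8 passed on soft gels without PD03 (0.0169% of genes), on soft gels with PD03 (0.107%) and on stiff gels with PD03 (0.514%). DESeq2 called 0 in each. At an unadjusted p under 0.05, 2, 3 and 3 members passed in that order, against 1345, 1430 and 1533 of the 17702 genes. With only the compared groups fitted, Tet2 (0.15, adjusted p = 0.000988) and Tet3 (0.22, adjusted p = 0.0338) passed on stiff gels with PD03. Whether the LIF effect differed between soft and stiff gels was not tested.

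On stiff gels without PD03 Dnmt3b had 299, 306 and 319 CPM with LIF and 401, 451 and 375 CPM without it (log2 change -0.41, SE 0.06, adjusted p = 1.38e-05). Dnmt3a had 126, 130.4 and 129.6 CPM with LIF and 157, 162 and 153 CPM without (-0.29, SE 0.05, adjusted p = 8.96e-04). Tet2 was higher with LIF, at 391, 415 and 378 CPM against 328, 279 and 337 CPM (0.33, SE 0.06, adjusted p = 4.91e-04). None of the 3 pairs of groups overlapped, and the share of all genes without overlap was not counted. The 3 calls held without any single library and in all 45 pool assignments.

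On soft gels the same genes had log2 changes with LIF of -0.14 for Dnmt3b (95% interval -0.26 to -0.02), 0.05 for Dnmt3a (-0.06 to 0.16) and 0.16 for Tet2 (0.04 to 0.28). Dnmt3l changed by -0.08 on stiff gels (-0.21 to 0.04) and by 0.07 on soft gels (-0.06 to 0.19), and neither passed.

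Between the gels and plastic in serum + LIF, 3 of 8 members passed for soft gels (11.8% of all genes, 6.47% lower) and 2 of 8 for stiff gels (5.54%, 3.59% lower), all lower on gels. Dnmt3l had 258, 248 and 252 CPM on plastic, above its 3 soft and 3 stiff libraries (soft minus plastic -0.44, SE 0.06, adjusted p = 2.59e-07; stiff minus plastic -0.32, SE 0.06, adjusted p = 1.92e-04). Tet3 had 48.2, 54.2 and 46.9 CPM on plastic, again above all 6 gel libraries (-0.55, SE 0.07, adjusted p = 9.64e-08, and -0.38, SE 0.07, adjusted p = 2.52e-04). Dnmt3b had 351, 311 and 365 CPM on plastic and was lower on soft gels (-0.26, SE 0.06, adjusted p = 0.00233).

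The Dnmt3b difference was lost without plastic library 3 (-0.19, adjusted p = 0.0726). With a pool term the Dnmt3l and Tet3 differences passed in 14 and 22 of 45 assignments against soft gels and in 30 and 30 against stiff gels, and Dnmt3b in 0. Soft gels and plastic came from different pools. Tet2, higher on soft gels than on plastic, did not pass (0.17, adjusted p = 0.0552), but did in 4 of 6 other settings (adjusted p 0.00539 to 0.0397 in those 4) and without plastic library 2 or soft serum + LIF library 2 (0.21 and 0.24, adjusted p = 0.0253 and 0.00556). Dnmt3b passed as lower on stiff gels than on plastic without plastic library 2 (-0.22, adjusted p = 0.0447).

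From 24 h to 48 h in serum + LIF 6 of 8 members passed on soft gels (24.4% of all genes) and 4 of 8 on stiff gels (25.6%). Dnmt3b rose from 220, 209 and 184 CPM to 282, 291 and 287 CPM on soft gels (log2 change 0.49, SE 0.06, adjusted p = 2.61e-08) and from 216, 236 and 219 CPM to 299, 306 and 319 CPM on stiff gels (0.46, SE 0.06, adjusted p = 5.69e-08). Dnmt3a rose from 96.4, 108 and 106 CPM to 146, 140 and 155 CPM on soft gels (0.5, SE 0.06, adjusted p = 1.62e-09) and from 108, 106 and 105 CPM to 126, 130.4 and 129.6 CPM on stiff gels (0.28, SE 0.06, adjusted p = 1.14e-04). The time points did not overlap for either gene on either substrate.

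Dnmt3l went the other way, from 233, 223 and 196 CPM to 182, 195 and 181 CPM on soft gels (-0.22, SE 0.06, adjusted p = 0.00536) and from 219, 248 and 232 CPM to 199, 207 and 200 CPM on stiff gels (-0.2, SE 0.06, adjusted p = 0.00846). Its libraries at 48 h were all below those at 24 h. The Dnmt3l to Dnmt3b ratio per length was accordingly 1.82 and 1.78 at 24 h on soft and stiff gels and 1.11 and 1.12 at 48 h. Dnmt3l lost its call on soft gels without 24 h library 1 or 48 h library 3 (-0.15 and -0.19, adjusted p = 0.112 and 0.053), and on stiff gels without 24 h library 2 (-0.16, adjusted p = 0.0901).

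On soft gels Uhrf1 rose (0.19, SE 0.05, adjusted p = 0.00113), as did Dnmt1 (0.18, SE 0.04, adjusted p = 0.00175), and Tet2 fell (-0.24, SE 0.06, adjusted p = 0.00176). On stiff gels Dnmt1 rose from 369, 354 and 372 CPM to 394, 398 and 401 CPM (0.12, SE 0.04, adjusted p = 0.0335), a call lost without any of the 6 libraries (0.1 to 0.14, adjusted p 0.0576 to 0.192). On the same libraries 8 of the 12 S-phase genes on soft gels and 7 on stiff gels were higher at 48 h, with 0 and 1 lower, where 12.9% and 12.6% of all genes were higher and 11.4% and 13% lower. Their part in the rise of the maintenance pair was not tested. With a pool term the Dnmt3b and Dnmt3a rises passed in 32 and 37 of 45 assignments on soft gels and in 45 and 45 on stiff gels, and the other 6 calls in at most 2 of 45. Pool and time cannot be told apart on soft gels.

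The levels of the members were set side by side over the 7 groups without PD03. For Dnmt3a, Dnmt3b, Dnmt3l and Tet2 the libraries with PD03 lay apart from those without, while the other members overlapped. Over these 7 group means of log2 CPM, Dnmt3b and Tet2 had a Pearson r of -0.95, Dnmt3a and Dnmt3b 0.92, Dnmt3a and Uhrf1 0.91, Dnmt3a and Tet2 -0.84, and Dnmt3b and Dnmt3l -0.1. These are descriptions over groups that share libraries, pools and scaling. Ordered by mean, Dnmt3b was highest in stiff serum (409 ± 38.6 CPM), then on plastic (342 ± 27.6), in soft serum (316 ± 12.7), in stiff (308 ± 9.77) and soft serum + LIF (287 ± 4.76), and in stiff (224 ± 10.9) and soft serum + LIF at 24 h (204 ± 18.3; SD, n = 3 each). The libraries of plastic and soft serum overlapped, as did those of soft serum and stiff serum + LIF and those of both 24 h groups.

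Tet2 was ordered nearly in reverse. Its mean was lowest in stiff serum (315 ± 30.9 CPM), followed by plastic (366 ± 14.7), soft serum (368 ± 23.7), stiff (395 ± 18.8) and soft serum + LIF (411 ± 35.5), and stiff (423 ± 26.5) and soft serum + LIF at 24 h (484 ± 38.8; SD, n = 3 each). Apart from stiff serum, whose libraries lay below those on plastic, all neighbours in this order overlapped or met. Dnmt3l had another order, with the highest mean on plastic (253 ± 5.29 CPM) and the lowest in soft serum (177 ± 4.21 CPM). Over these 7 groups Tet3 was also highest on plastic (49.8 ± 3.88 CPM) and lowest on soft gels at 24 h (32.8 ± 2.74 CPM).

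The genes most like each member were taken by Pearson r of log2 CPM over the 11 group means, among genes of at least 5 CPM on average. For Dnmt3b these were Tdg, the glycosylase named above (r = 0.998, and 0.98 over the 7 groups without PD03), Qser1 (0.997 and 0.988) and Naf1 (0.997 and 0.973). For Dnmt3a they were Isy1, Zfp266 and Naf1 (0.998 to 0.996), and for Dnmt3l Lmo4, Dusp4 and Sned1 (0.997 to 0.996), Dusp4 being a phosphatase induced by ERK. For Tet2 they were Nfatc2ip, Eif2s2 and Slc25a20 (0.997 each). Such values are common when PD03 separates the groups: 1112 genes had an r over 0.95 with Dnmt3b and 1175 with Tet2.

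Uhrf1, with 7 genes over 0.95, was most like the chromatin gene Hmgb1 (0.965), the replication-dependent linker histone gene Hist1h1a (0.963) and Nrde2 (0.962). Dnmt1 was most like Top2a, the topoisomerase of dividing cells (0.953), Fyttd1 (0.951) and Twistnb (0.949). Tet1 was most like Zfp979 (0.982), Irak3 (0.98) and Mrpl24 (0.979), and Tet3 like Rock2, a kinase of the actin cytoskeleton (0.951), Bmpr2 (0.937) and Aif1l (0.926).

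Genes that work with the members were followed as lists, with the numbers passing in soft serum + LIF, stiff serum + LIF, soft serum and stiff serum in that order. Of 7 maintenance partners, 5, 5, 4 and 4 fell with PD03 and 1 rose in each, with median log2 changes of -0.56, -0.61, -0.49 and -0.66. As background for this and the next lists, 26.6 to 28.5% of all genes fell and 27.8 to 29% rose in the 4 settings. The riser was Uhrf2, a relative of Uhrf1 (0.29 to 0.47), named after its values were seen. Pclaf, a PCNA partner that helps recruit the maintenance machinery, fell by 1.21 to 1.38 on the log2 scale, from group means of 57.6 to 64.2 CPM to 22.2 to 25.7 CPM. Of the 12 S-phase genes 6, 7, 5 and 8 fell and 1, 1, 2 and 1 rose, with medians of -0.13, -0.18, -0.05 and -0.15.

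Of 9 targeting partners, whose products steer methylation through histone marks and zinc finger proteins, 5, 6, 6 and 5 fell and 2, 1, 2 and 2 rose, none by 2-fold. Of 7 methyl-CpG readers 5, 5, 4 and 5 rose and 1, 2, 1 and 2 fell, with median changes of 0.38 to 0.45.

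Of 12 demethylation partners 6, 6, 5 and 6 fell and 3, 3, 4 and 3 rose, against 26.6 to 28.5% lower and 27.8 to 29% higher among all genes. Gadd45a and Gadd45b, DNA damage response genes linked to active demethylation, moved in opposite directions. Gadd45a fell by 1.57 to 2.04 on the log2 scale, from group means of 40.3 to 43.5 CPM to 10.4 to 13.9 CPM. Gadd45b rose by 1.69 to 2, from 8.93 to 9.96 CPM to 32.2 to 39.6 CPM. Tdg fell by 0.88 to 1.12, from 45.2 to 53.3 CPM to 23.5 to 25.2 CPM, and Cxxc4, a Tet2 binding protein, fell by 1.52 to 1.77 at levels under 2 CPM.

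Of 13 methyl donor and cofactor enzymes 7, 7, 9 and 6 rose and 4, 5, 3 and 4 fell, against 26.6 to 28.5% lower and 27.8 to 29% higher among all genes. Bhmt, which remakes methionine from betaine, rose from group means of 0.491 to 1.12 CPM to 59.8 to 76.3 CPM, a log2 change of 6.02 to 6.88. Its neighbour in function Bhmt2 rose by 4.34 to 5.04 to about 7.24 to 7.95 CPM. The isocitrate dehydrogenases that make 2-oxoglutarate, the Tet cosubstrate, rose together: Idh1 by 1.35 to 1.62 (from 34.4 to 40.5 CPM to 103 to 108 CPM) and Idh2 by 1.23 to 1.39 (from 38.2 to 42.1 CPM to 95.5 to 101 CPM).

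**Figure D5:**
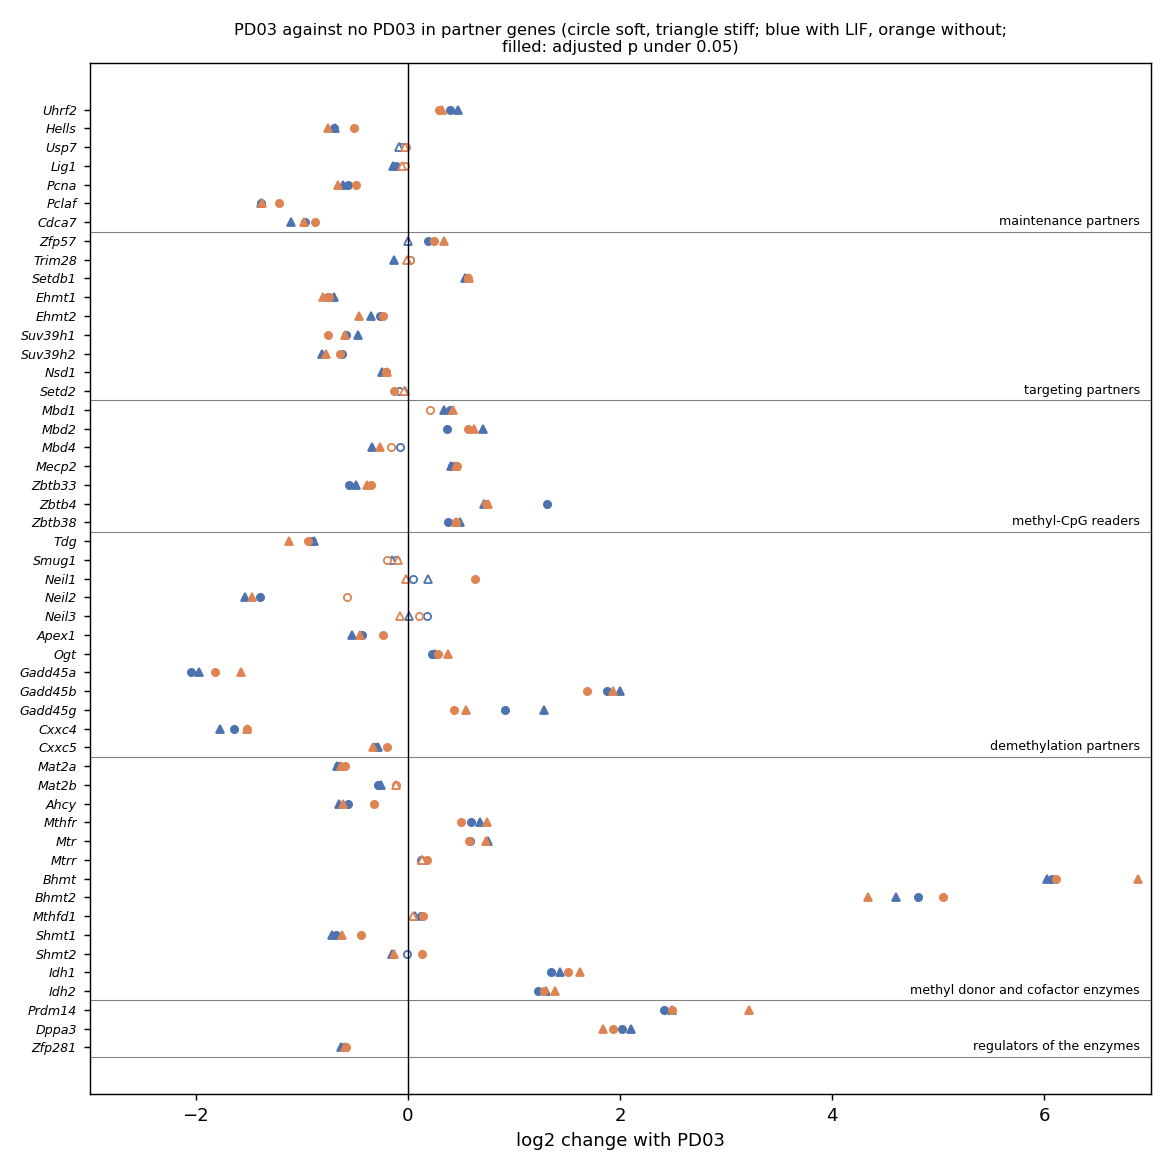
Log2 change with PD03 (x axis) of every partner gene (y axis), grouped by list and separated by lines; circles are soft and triangles stiff gels, blue with LIF and orange without, filled where the adjusted p was under 0.05. Bhmt and Bhmt2 lie farthest right (6.02 to 6.88 and 4.34 to 5.04) and Gadd45a farthest left (-2.04 to -1.57).

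Among 3 regulators of the enzymes, Prdm14, a repressor of Dnmt3b and Dnmt3l transcription known from naive cells and primordial germ cells, rose in all 4 settings. It went from 9.48 ± 2.22 to 50.2 ± 2.91 CPM in soft serum + LIF (SD, n = 3 each; log2 change 2.41, SE 0.11) and from 4.99 ± 0.619 to 45.7 ± 2.6 CPM in stiff serum (SD, n = 3 each; 3.22, SE 0.12). Dppa3, which keeps Uhrf1 from chromatin, rose by 1.84 to 2.1, from group means of 16.1 to 20.1 CPM to 59.4 to 82.1 CPM. Zfp281, a zinc finger factor that acts with Tet1, fell by 0.58 to 0.63.

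Without PD03 Prdm14 was higher on soft than on stiff gels at 24 h (log2 difference 0.54, adjusted p = 0.00467) and in serum (0.87, adjusted p = 1.11e-05). Each call held in 45 of 45 pool assignments, but the term could not move the 24 h estimate, whose libraries share a pool. In serum + LIF at 48 h the difference was 0.35 (adjusted p = 0.264). The 24 h call was lost without soft library 2 (0.45, adjusted p = 0.0735) or stiff library 2 (0.43, adjusted p = 0.079). In serum the PD03 effect on Prdm14 was smaller on soft gels by 0.73 on the log2 scale (adjusted p = 0.00954). Without stiff serum library 1 this call was lost (-0.61 as soft minus stiff, adjusted p = 0.0978).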

How the data were processed

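RNA from mouse embryonic stem cells was sequenced in 36 libraries of 11 groups, which were taken from the sample labels. Per the labels and the methods, reads were aligned to mm10 (GRCm38) with STAR 2.5.2a and counted per Ensembl gene with HTSeq, and how strand and multiply mapped reads were treated is not given in the sources used here. The labels name a NuGen library kit. The authors deposited raw counts per gene, whole numbers with no normalization, for 49671 genes, of which 13380 had no count. Totals ran from 10405696 to 26635239 per library. All count columns were used (0 left out), but they name the group and not the sample, so a library number is only a name.

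From these counts, filterByExpr kept 17702 genes with 99.92% of all counts, libraries were scaled by TMM, and a quasi-likelihood model with 1 coefficient per group was fitted over all libraries (R 4.3.3, edgeR 4.0.16, limma 3.58.1), without covariates. The p-values were adjusted by Benjamini-Hochberg across every tested gene, with a threshold of 0.05. CPM are TMM-scaled, RPKM divide CPM by the union of annotated exons, and SE and intervals belong to the log2 change. Where groups are said not to overlap, how many of all genes do the same was not counted. The design was tried on simulated data for 1 comparison, PD03 in soft serum + LIF, with 200 of 17702 genes changed by 1 on the log2 scale. Of these 70% were recovered, and 2.78% of calls were false. Smaller changes, the other comparisons and pool terms were not simulated.

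The members and lists were chosen with earlier results of these data known. All 8 members are described. A list gene is named where it passed with a fold of at least 2 and the same sign in all 4 PD03 comparisons, Prdm14, Dppa3 and Zfp281 always, and for each member the 3 genes with the highest Pearson r. Ier3 and Uhrf2 were named outside this rule, after their values were seen.

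Alternatives were RLE (DESeq2-type) scaling, library totals, upper quartile scaling, no filter on low counts, a fit on the compared groups only, DESeq2 1.42.0, a fold of at least 2 as a second condition, a pool term, and each library left out. Promoters are RefSeq windows of GRCm38.p6, of which the 250 bases before the start were searched. Protein sequences were not used here.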

Additional observations from a re-analysis of the deposited data

Results flagged for a closer look

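Dnmt1 had 440.5 CPM in 1 of the 6 soft serum + PD03 libraries, far from the other 5, which had 378 to 393 CPM. The gap took up 0.765 of the range of the group, above Dixon's 95% limit for 6 samples, and chance alone passes this limit in about 1 of 20 groups. The test was made for each of the 8 members in this group, the only one with over 3 libraries, and 1 passed. The group mean of 394 CPM holds this library, and the PD03 change of Dnmt1 in soft serum did not pass with it or without it.

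The PD03 effect on Dnmt3b on stiff gels differed with LIF by 0.36 on the log2 scale in the test of the difference itself (adjusted p = 0.0321), the fall being smaller with LIF. Its mean without PD03 was 308 ± 9.77 CPM with LIF and 409 ± 38.6 CPM without (SD, n = 3 each), while with PD03 it was 62 ± 1.51 and 64.3 ± 3.25 CPM.

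For Prdm14 the PD03 effect in serum differed between substrates by -0.73 (soft minus stiff, adjusted p = 0.00954). This call was lost without library 1 of stiff serum (-0.61, adjusted p = 0.0978). On stiff gels the PD03 effect also differed with LIF by -0.73 (with minus without LIF, adjusted p = 0.0159). That call was lost without library 1 of stiff serum (-0.58, adjusted p = 0.154) or library 1 of stiff serum + LIF (-0.66, adjusted p = 0.0947). With a pool term it passed in 30 of 45 assignments. Both differences share the stiff serum group, where Prdm14 had its lowest 48 h mean, 4.99 ± 0.619 CPM (SD, n = 3), and the share of that group in either was not tested.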

How the results depend on the processing

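Of 4784 values recomputed for 307 gene tests, 4629 kept their side of the threshold, 117 lost a call, 38 gained one, and no call changed sign. Of the 2521 values that were uncalled under both settings, 176 had the other sign. The 24 PD03 calls ranged from 23 to 24 under every other scaling, filter, fit, tool, pool term and left-out library, and were 16 with a fold of at least 2 as well. The PD03 by substrate count of 0 became 1 with no filter on low counts, and was 0 without any single library. The PD03 by LIF count of 1 became 2 with RLE scaling, with no filter, with only the compared groups and with DESeq2, became 0 with library totals and with the fold condition, and ranged from 0 to 2 without single libraries.

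With only the compared groups the soft against stiff count of 9 became 5 and the LIF count of 3 became 5. With the fold condition the counts for soft against stiff, LIF, gels against plastic and 48 h against 24 h were all 0. Without single libraries these 4 counts ranged from 7 to 11, from 3 to 3, from 4 to 7 and from 8 to 10. Over the 45 pool assignments the lowest counts were 0 for PD03 by LIF, 1 for soft against stiff (of 9), 1 for gels against plastic (of 5) and 2 for 48 h against 24 h (of 10, highest 4). The causes of these changes were not tested. With library totals the median change of all genes in the 4 PD03 comparisons was -0.02 to 0.04, against -0.01 to 0.01 with TMM, and group levels of members by a factor of 0.963 to 1.04. No paired analysis was possible because the columns carry no replicate numbers.

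The limits are 3 libraries in most groups, substrate and pool that cannot be told apart for most 48 h libraries, and replicates that may be technical.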
